A study of Ovis aries with 15 samples.

Results

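The enzymes of cholesterol synthesis followed here, 8 in number, were chosen by name along the route from acetoacetyl-CoA through mevalonate to cholesterol and measured in the sheep mammary gland: HMGCS1, MVK, MVD, IDI1, FDFT1, SQLE, LSS and DHCR7. They are 8 of the 24691 features of the deposited RNA-seq table, and the rule that names them uses no measured value, although the list was drawn up with earlier results of these data known. Mammary parenchyma was taken by needle biopsy from Romney ewes, 2 years old and in their first pregnancy, at day 135 of gestation (late pregnancy, 9 libraries) and again at day 15 post partum (lactation, 6 libraries), and each library pools the RNA of several ewes. All ewes were kept on the same feed. They differ in what their own dams were fed in early pregnancy, which was below maintenance (LM), at maintenance (MM) or without restriction (HM), all followed by maintenance feeding, so that late pregnancy has 3 pools and lactation 2 pools of each dam group. A biopsy holds secretory, myoepithelial, stromal, vascular and immune cells together. In such bulk RNA, fewer cells of a type and less RNA per cell cannot be told apart.

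Cholesterol is built from acetyl-CoA units. They are joined and reduced to mevalonate, which is phosphorylated and decarboxylated to the isoprene unit isopentenyl pyrophosphate. Isoprene units are condensed to farnesyl pyrophosphate and on to squalene, and squalene is oxidised, closed to the sterol ring system and trimmed to cholesterol. The genes of this route are known as targets of the transcription factor SREBP2, which is held back in the endoplasmic reticulum when sterols are plentiful. In the lactating mammary gland cholesterol enters milk mainly within the membrane that surrounds the milk fat globule.

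In the coordinates of the deposited table, HMGCS1 lies at chr16:31409663-31432250, MVK at chr17:63255731-63274002, MVD at chr14:13417946-13424395 and IDI1 at chr13:45500427-45504090. FDFT1 lies at chr2:104398984-104425779, SQLE at chr9:28005601-28027254, LSS at chr1:264029606-264068795 and DHCR7 at chr21:47574985-47584575. The sheep build is Oar 3.1 by the labels and version 3.2 by the methods, and strands were not used here. No other feature of the table overlapped any of these loci. After rounding, 100% of the exon reads of MVK, MVD, IDI1, SQLE, LSS and DHCR7 were uniquely placed, against 96.5% for HMGCS1 and 95.8% for FDFT1.

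Depth ran from 6471237 to 16898986 reads used per late pregnancy library (median 13919007) and from 9014506 to 24001031 per lactation library (median 15075423). The genes of 7 milk proteins, with the caseins among them, took 13.7% to 23.4% of a late pregnancy library and 71.3% to 75.8% of a lactation library. Levels are therefore given as CPM (counts per 1000000) of a library size scaled by the trimmed mean of M-values (TMM). This scaling assumes that most genes do not differ between libraries. The lactation library HM pool 1 stood apart from the other lactation libraries, with the lowest depth of its state and 13.2% of its reads on genes lying outside exons, against 5.85% to 6.68% in the other 5. Without it, all 8 enzymes still differed between states, with log2 changes of 0.68 for MVK to 3.52 for DHCR7, as did 9033 genes in all.

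All 8 enzymes were higher in lactation than in late pregnancy after TMM scaling, and 7 of them rose more than 2-fold. DHCR7 rose most, by 11.2-fold, followed by IDI1 at 6.05-fold, MVD at 4.18-fold and LSS at 3.95-fold, and MVK rose least, by 1.62-fold. Differences were called at an adjusted p under 0.05 by edgeR's quasi-likelihood test over 13345 genes. The states differed widely: 33.1% of all genes tested were called higher in lactation and 35.2% lower, whereas 9.13% were called higher by more than 2-fold. For each of the 8 enzymes every lactation library lay above every late pregnancy library, a pattern shown by 20.2% of all genes tested. The median log2 change of the 8 was 1.78, beside −0.03 over all genes. HMGCS1, FDFT1, SQLE and DHCR7 are also among the genes that the study listed from these same libraries. The other enzymes were measured in the same libraries too, so the direction of none of the 8 is independent evidence.

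**Figure D1:**
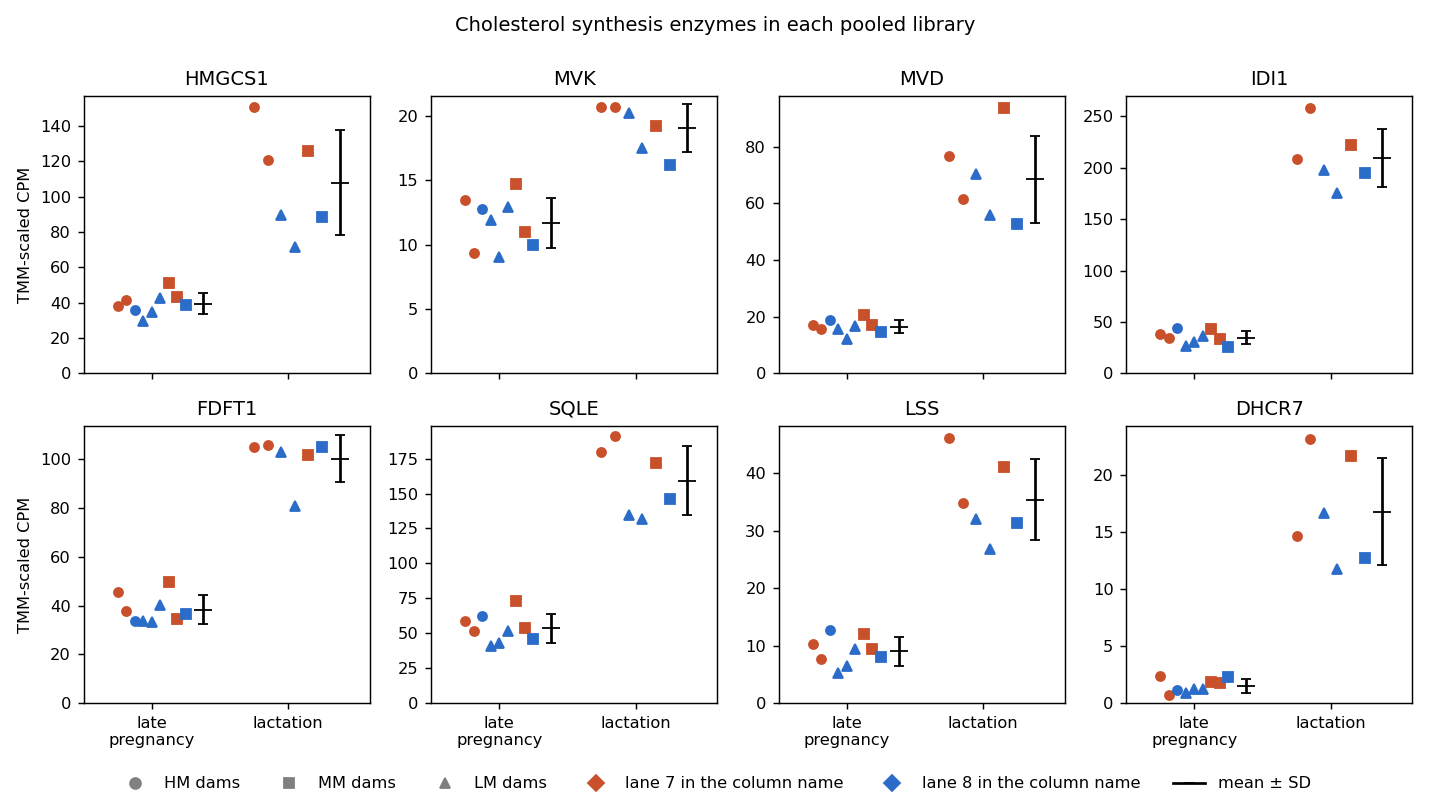
TMM-scaled CPM (vertical axis, from 0) of each enzyme in the 9 late pregnancy and 6 lactation libraries, 1 point per pooled library, with the dam group as marker shape and the lane in the column name as colour; the bar is the mean ± SD. In every panel the lowest lactation library lies above the highest late pregnancy library, from 16.2 against 14.7 CPM for MVK to 11.8 against 2.35 CPM for DHCR7.

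At the head of the route stands HMGCS1, the cytosolic synthase that makes HMG-CoA. Its level in late pregnancy ran from 29.9 to 51.0 CPM with a median of 38.7 (39.5 ± 5.99, mean ± SD, n = 9), and in lactation from 71.4 to 151 CPM with a median of 105 (108 ± 29.6, n = 6). The states did not overlap, and lactation was the more variable of them, with a coefficient of variation of 27.4% against 15.2%. HMGCS1 rose by 1.45 on the log2 scale (SE 0.13, adjusted p = 7.4e-09, edgeR), or by 1.33 without the lactation library HM pool 1, which had its highest value.

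MVK, the kinase that adds the first phosphate to mevalonate, changed least of the 8. It ran from 9.05 to 14.7 CPM in late pregnancy (median 11.9; 11.7 ± 1.97, n = 9) and from 16.2 to 20.7 CPM in lactation (median 19.7; 19.1 ± 1.85, n = 6). The gap between the states was narrow, and both HM pools of lactation stood at the top with 20.7 CPM. The rise was 0.70 on the log2 scale (SE 0.11, adjusted p = 9.4e-06, edgeR), the only one of the 8 under 2-fold.

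MVD, which decarboxylates diphosphomevalonate to isopentenyl pyrophosphate, ran from 12.2 to 20.5 CPM in late pregnancy (median 16.7; 16.5 ± 2.39, n = 9). In lactation it ran from 52.6 to 93.8 CPM (median 66.0; 68.5 ± 15.3, n = 6). MM pool 1 was highest in both states and, in lactation, MM pool 2 was lowest, so the extremes of lactation belonged to the same dam group. MVD rose by 2.06 on the log2 scale (SE 0.12, adjusted p = 6.0e-12, edgeR).

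IDI1, the isomerase that interconverts the C5 isoprene units, had the highest CPM of the 8 in lactation. It ran from 26.1 to 43.8 CPM in late pregnancy (median 34.6; 34.6 ± 6.34, n = 9) and from 175 to 258 CPM in lactation (median 203; 209 ± 28.6, n = 6). The lowest lactation library was thus several times the highest library of late pregnancy. The log2 change was 2.60 (SE 0.11, adjusted p = 5.0e-14, edgeR), the smallest adjusted p of the 8.

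FDFT1, squalene synthase, catalyses the first step that is committed to sterols. In late pregnancy it ran from 33.1 to 49.7 CPM (median 36.7; 38.4 ± 5.80, n = 9) and in lactation from 80.9 to 106 CPM (median 104; 100 ± 9.70, n = 6). The lactation libraries other than LM pool 2 lay between 102 and 106 CPM, whereas LM pool 2 lay apart at 80.9. The rise was 1.39 on the log2 scale (SE 0.09, adjusted p = 3.2e-11, edgeR), and 1.44 without LM pool 2.

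SQLE, squalene epoxidase, is the oxygen-requiring enzyme regarded as a control point of the route. It ran from 40.8 to 72.9 CPM in late pregnancy (median 51.7; 53.4 ± 10.2, n = 9) and from 132 to 191 CPM in lactation (median 159; 159 ± 25.1, n = 6). LM pools 1 and 2 had the lowest values in both states. SQLE rose by 1.58 on the log2 scale (SE 0.11, adjusted p = 2.3e-10, edgeR).

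LSS, lanosterol synthase, closes the sterol rings. It ran from 5.17 to 12.7 CPM in late pregnancy (median 9.36; 9.0 ± 2.46, n = 9) and from 26.8 to 46.2 CPM in lactation (median 33.5; 35.4 ± 7.05, n = 6). The highest lactation library was HM pool 1, the library that stood apart, and the log2 change was 1.98 with it (SE 0.16, adjusted p = 1.2e-09, edgeR) and 1.91 without it.

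DHCR7, which reduces 7-dehydrocholesterol to cholesterol, was the scarcest of the 8 in late pregnancy and changed most. It ran from 0.731 to 2.35 CPM in late pregnancy (median 1.25; 1.5 ± 0.593, n = 9), on 8 to 51 exon reads per library, and from 11.8 to 23.2 CPM in lactation (median 15.7; 16.8 ± 4.70, n = 6), on 62 to 249 reads. The log2 change was 3.48 (SE 0.21, adjusted p = 1.2e-11, edgeR), the 140th largest rise among the 13345 genes tested. Its spread was the widest of the 8, with a coefficient of variation of 39.5% in late pregnancy and 28.0% in lactation, where HMGCS1 was close at 27.4%. The median coefficients of the 7074 genes that averaged 10 CPM or more were 8.87% in late pregnancy and 10.5% in lactation. All 8 enzymes exceeded the median of late pregnancy, while MVK (9.69%) and FDFT1 (9.66%) lay under that of lactation. DHCR7 averaged under 10 CPM over the 15 libraries and is not among the 7074, so it is set beside genes with higher counts.

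The direction of these changes rested on the scaling, because milk protein genes filled most of each lactation library. As a share of all reads the 8 enzymes together made up 0.0270% to 0.0450% in late pregnancy and 0.0251% to 0.0405% in lactation, ranges that overlap. As a share of the reads outside the 7 milk protein genes they made up 0.0327% to 0.0547% in late pregnancy and 0.102% to 0.146% in lactation, which do not. Scaling to all reads set the median log2 change of all genes at −1.94, and 97.3% of the genes called were then lower in lactation, against 51.6% with TMM, 63.7% with upper-quartile scaling (median −0.18) and 68.1% with scaling to reads outside milk protein genes (median −0.24).

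Under scaling to all reads IDI1 (0.70) and DHCR7 (1.58) were still called higher on the log2 scale, and MVD (0.17, adjusted p = 0.196) and LSS (0.09, adjusted p = 0.593) were not called. HMGCS1 (−0.44), MVK (−1.20), FDFT1 (−0.51) and SQLE (−0.32) were called lower. All 8 were called higher under the other scalings. Those called 9122 (TMM), 9410 (upper quartile) and 9513 (reads outside milk protein genes) of 13345 genes in either direction. A change of scaling shifts all genes by nearly the same amount, so by construction the distance from the median gene stays almost fixed: it was 0.73 for MVK and 3.51 for DHCR7, with the other 6 enzymes between them.

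**Figure D2:**
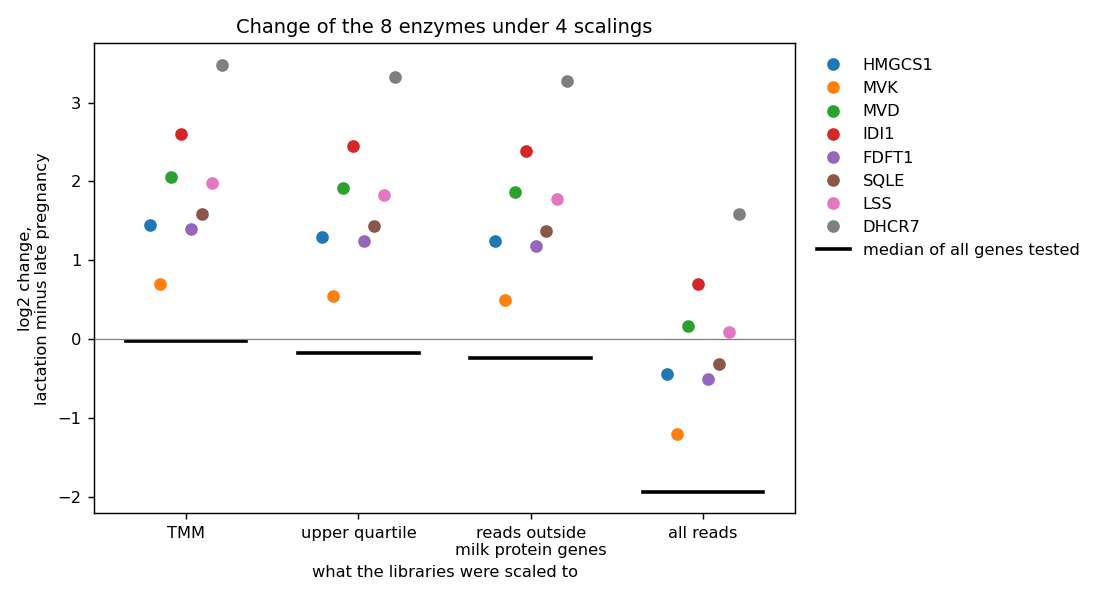
Log2 change from late pregnancy to lactation (vertical axis) of each enzyme when libraries are scaled by TMM, by the upper quartile, by reads outside 7 milk protein genes or by all reads; black bars give the median over all 13345 genes tested. The 8 points move down with the bar, as a change of scaling must make them, from a median gene at −0.03 with TMM to −1.94 with all reads.

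Reads inside a gene but outside its exons, which can come from unspliced RNA or from exons not annotated, gave a further view of the same libraries. The difference between gene reads and exon reads was tested in the same way for 10344 genes, of which 29.0% were called higher in lactation. HMGCS1 had only 3 to 47 such reads per library and did not pass the filter on low counts. The other 7 enzymes were all called higher, by 3.16 for IDI1 (SE 0.16), 3.07 for DHCR7 (SE 0.19), 2.34 for MVD (SE 0.16) and 2.00 for LSS (SE 0.16) on the log2 scale. FDFT1 (1.54), SQLE (1.51) and MVK (0.97) changed less, with MVK again last. The value of IDI1 rests on few such reads, 6 to 16 per late pregnancy library and 22 to 63 per lactation library. Leaving out the lactation library HM pool 1, which had the unusual share of such reads, kept all 7 calls. DHCR7 had 57.6% of its gene reads outside exons in late pregnancy and 51.4% in lactation, the largest share of the 8, so its annotated exons held the smaller part of the reads of the locus.

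Most other genes of the route rose as well. Of 11 listed, CYP51A1 and TM7SF2 were not analysed here, and 7 of the other 9 rose by over 2-fold. Over the 9 the median was 1.73 on the log2 scale. MSMO1, the sterol C4-methyl oxidase, rose most at 2.97 (SE 0.13), from 44.7 ± 9.60 to 350 ± 59.7 CPM. PMVK, which phosphorylates phosphomevalonate between MVK and MVD, followed at 2.51 (SE 0.11), so that of the 3 enzymes between mevalonate and isopentenyl pyrophosphate MVK changed least.

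EBP, the sterol isomerase, rose by 2.30 on the log2 scale (SE 0.10). FDPS, which makes farnesyl pyrophosphate, rose by 2.00 (SE 0.13) and NSDHL, of the C4-demethylation complex, by 1.73 (SE 0.11). SC5DL, the sterol desaturase, rose by 1.65 (SE 0.08) and HSD17B7, the sterol ketoreductase, by 1.10 (SE 0.12). Only 79.2% of the exon reads of SC5DL were uniquely placed. Of the 9, 2 were not called. ACAT2, the cytosolic thiolase that supplies acetoacetyl-CoA, changed by −0.39 (adjusted p = 0.057, edgeR), and LBR, a nuclear envelope protein with sterol reductase activity, by 0.09 (adjusted p = 0.543). Scaled to all reads, 3 of the 9 were called higher, namely MSMO1, PMVK and EBP, and the median of the 9 was −0.16 against −1.94 for all genes.

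**Figure D3:**
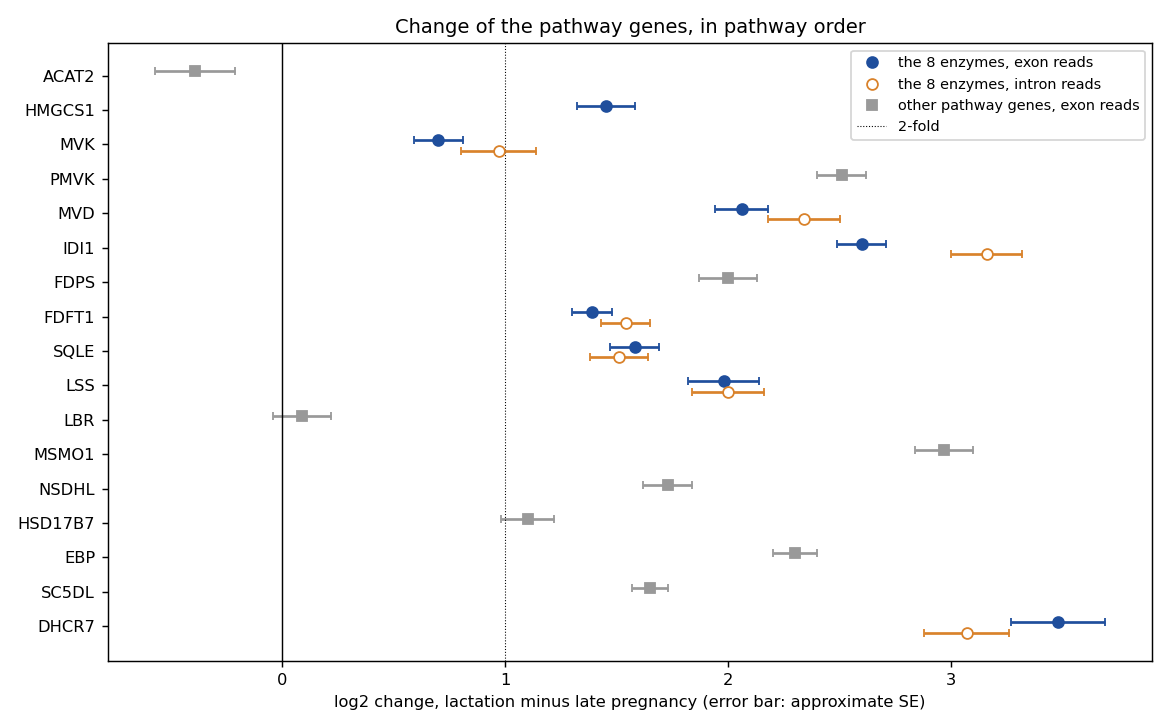
Log2 change from late pregnancy to lactation (horizontal axis, approximate SE as bars) of the 8 enzymes on exon reads (filled circles) and intron reads (open circles) and of 9 other genes of the route on exon reads (squares), from the first step at the top to the last at the bottom. ACAT2 (−0.39) and LBR (0.09) lie near the line of no change, MVK lies under the 2-fold line at 0.70, and DHCR7 lies farthest right at 3.48.

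Genes that sense or regulate sterols moved in both directions. Of 13 listed, 9 were called higher and 3 lower, and the median log2 change was 0.32, or −1.58 when scaled to all reads. INSIG1, which retains the SREBP complex in the endoplasmic reticulum and is itself an SREBP target, rose from 44.7 ± 13.5 to 1419 ± 264 CPM, a log2 change of 4.99 (SE 0.18, adjusted p = 4.9e-15, edgeR), and was also higher when scaled to all reads (3.1). SREBF1, whose product drives lipid synthesis genes, rose by 0.89, SREBF2, which encodes SREBP2, by 0.59 and INSIG2 by 0.32, and all 3 were called lower when scaled to all reads. SCAP, the escort of SREBPs, fell by 0.34, and the ubiquitin ligase gene RNF145 fell by 0.52.

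Among genes of cholesterol uptake, transfer and efflux, 12 of 16 listed were analysed and 11 tested, with 2 called higher, 6 lower and a median log2 change of −0.21 (−2.11 scaled to all reads). STARD4, a soluble sterol carrier, rose by 2.39 (SE 0.13) and VLDLR, a lipoprotein receptor, by 1.21 (SE 0.13), although VLDLR was at −0.69 when scaled to all reads. The efflux transporter genes ABCA1 and ABCG1 fell by 2.26 (SE 0.18) and 1.67 (SE 0.19). ABCA1 went from 25.2 ± 4.10 to 5.30 ± 2.16 CPM, in the direction opposite to the 8 enzymes.

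Genes of sterol esters, oxysterols and steroids were few and low: of 10 listed 7 were analysed and 5 tested, with 2 called in each direction and a median of 0.65 (−1.24 scaled to all reads). LCAT, which esterifies cholesterol on lipoproteins, rose by 2.19, and SOAT1, its intracellular counterpart, by 0.88. Scaled to all reads, LCAT was not called (0.29, adjusted p = 0.0622, edgeR) and SOAT1 was at −1.03. CYP11A1, which cleaves the side chain of cholesterol, fell by 1.63 and NCEH1, a cholesterol ester hydrolase, by 0.66, each from a mean under 2 CPM. Where the route branches to non-sterol isoprenoids, all 10 listed genes were tested, with 5 called higher, 2 lower and a median of 0.18 (−1.73 scaled to all reads). DOLK, dolichol kinase, rose by 1.75 and NUS1, of the dolichol-making prenyltransferase, by 0.97, both of them below 0 when scaled to all reads. COQ2 and FNTA, which prenylate ubiquinone precursors and proteins, each fell by 0.42.

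Fatty acid synthesis uses the same acetyl-CoA. Of 12 genes listed for it and for acetyl-CoA supply, 9 were called higher, 8 of them by over 2-fold, and 2 lower, and the median was 2.55 on the log2 scale (0.64 scaled to all reads). FADS2 and FADS1, desaturases of polyunsaturated fatty acids, rose by 5.26 and 3.91. ACLY, which releases acetyl-CoA from citrate, fell by 0.44, and the mitochondrial thiolase ACAT1 fell by 0.15. All 7 milk protein genes rose, by a median of 4.03 (2.13 scaled to all reads), led by CSN1S2 at 6.88 and LALBA at 5.42.

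Markers of the cell types in a biopsy also moved between the states. The summed level of 6 luminal epithelial markers was 974 to 1425 CPM in late pregnancy and 1326 to 1573 CPM in lactation, with 3 called higher and 1 lower, and that of 5 myoepithelial markers was 527 to 593 and 485 to 714 CPM, with 2 called in each direction. Fibroblast markers (4 tested, 3 lower) summed to 353 to 627 and 225 to 372 CPM, endothelial markers (3 tested, 3 lower) to 140 to 192 and 85.8 to 124 CPM, and macrophage markers (4 tested, 3 lower) to 99.9 to 132 and 49.1 to 72.5 CPM. T cell markers (4 tested, 4 lower) summed to 35.5 to 58.1 and 11.7 to 17.9 CPM. B and plasma cell markers (3 tested, 2 higher and 1 lower) summed to 28.7 to 74.9 and 61.2 to 151 CPM, and adipocyte markers (3 tested, none called) to 221 to 427 and 301 to 392 CPM. Some sums came mostly from 1 gene. KRT19 averaged 622 CPM in late pregnancy and 947 CPM in lactation among the luminal markers. FABP4 averaged 322 and 333 CPM among the adipocyte markers, and IGJ 47.5 and 89.3 CPM among the B and plasma cell markers. No marker measured was at 0 in every library. The part of these cell types in the change of the 8 enzymes was not tested.

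Levels of different genes were compared by the deposited RPKM, which divides by exon length. In late pregnancy SQLE stood highest at 36.8 ± 6.56 RPKM, above FDFT1 (31.4 ± 4.50), IDI1 (24.8 ± 4.04), HMGCS1 (16.9 ± 2.87), MVD (16.3 ± 2.14), MVK (9.59 ± 1.41), LSS (5.16 ± 1.31) and DHCR7 (1.48 ± 0.583, each n = 9). Each gene lay above the next in all 9 libraries, except FDFT1 above IDI1 in 8 and HMGCS1 above MVD in 6, so the last of these pairs did not differ beyond its spread.

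In lactation the order changed. IDI1 led at 43.6 ± 6.31 RPKM, followed by SQLE (32.0 ± 5.74), FDFT1 (23.9 ± 2.60), MVD (19.9 ± 5.33), HMGCS1 (13.5 ± 4.17), LSS (5.95 ± 1.43), DHCR7 (4.81 ± 1.40) and MVK (4.56 ± 0.533, each n = 6). IDI1 exceeded SQLE in 6 of 6 libraries. FDFT1 exceeded MVD in 5 of 6. MVK, DHCR7 and LSS formed a low group in which neighbours were not separated in every library: LSS exceeded DHCR7 in 5 and DHCR7 exceeded MVK in 2 of 6. For these genes RPKM counts reads on annotated exons only, and 51.4% of the lactation gene reads of DHCR7 lay outside them. RPKM is per read on all genes, milk protein genes included, so levels within a state can be ordered by it whereas the states cannot be set against each other.

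Shares of the summed RPKM of the 8 enzymes do not depend on library scaling. IDI1 went from 17.4% ± 1.5 of the sum in late pregnancy to 29.6% ± 1.91 in lactation, and DHCR7 from 1.04% ± 0.402 to 3.21% ± 0.574. MVK went from 6.76% ± 0.773 to 3.11% ± 0.309 and SQLE from 25.7% ± 1.29 to 21.6% ± 1.24. For these 4 no lactation library reached the range of late pregnancy. How often such shares separate in other sets of genes was not computed, while ratios of 2 genes did so for 40.7% of all pairs. A share can fall while the level rises: after TMM scaling SQLE rose 2.98-fold and MVK 1.62-fold. The shares of HMGCS1 (11.9% and 8.94%), MVD (11.5% and 13.3%), FDFT1 (22.1% and 16.3%) and LSS (3.58% and 3.99%) overlapped between the states.

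**Figure D4:**
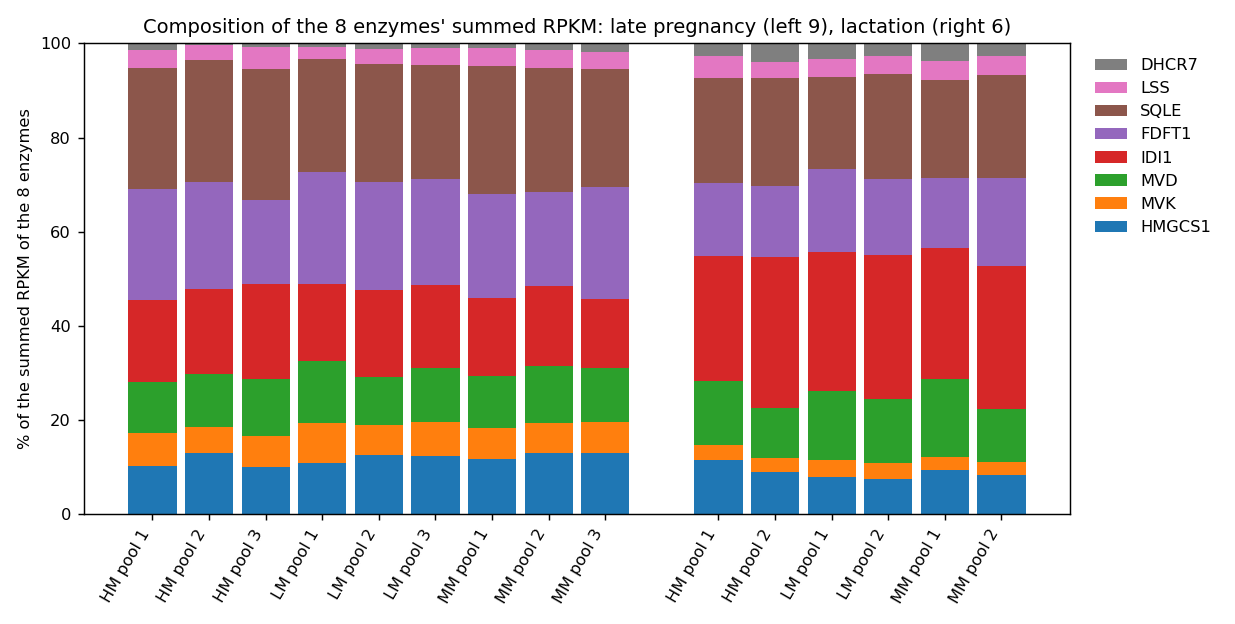
Share of each enzyme in the summed RPKM of the 8 (vertical axis, %), 1 stacked bar per pooled library, with late pregnancy on the left and lactation on the right. IDI1 takes 14.8% to 20.2% of every late pregnancy bar and 26.7% to 32.1% of every lactation bar, while MVK narrows from 5.57% to 8.38% down to 2.78% to 3.52%.

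The 8 enzymes were also compared in pairs by the ratio of their exon reads within a library, which needs no scaling either. Of 28 pairs, 14 had ratios that did not overlap between the states, which is 50.0% beside 40.7% of all pairs among 12766 genes with a read in every library. Without the lactation library HM pool 1 the number was 15. Ratios with MVK or DHCR7 made up 11 of the 14. MVK was lower relative to 6 of the other 7 without overlap, with a log2 difference of −0.67 against FDFT1 and of −2.82 against DHCR7. The remaining 3 all held IDI1, which was higher in lactation relative to FDFT1 by 1.21 and to SQLE by 1.02, while the ratio of HMGCS1 to IDI1 differed by −1.19. HMGCS1 and FDFT1 kept nearly the same ratio, with a mean log2 ratio of 0.04 ± 0.17 in late pregnancy and 0.06 ± 0.32 in lactation, as did MVD and LSS (0.91 ± 0.29 and 0.95 ± 0.20). IDI1 and SQLE had the steadiest ratio within a state, with an SD of 0.11 in both.

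The feeding of the ewes' dams was the question the libraries were designed for. In late pregnancy none of the 8 enzymes was called between the 3 dam groups, and neither was any of 13747 genes (0% called by edgeR; 571 had an unadjusted p under 0.05, and DESeq2 called 20, none of the 8). Unadjusted p-values of the enzymes ran from 0.060 for SQLE to 0.862 for MVK. The LM pools had the lowest mean of every enzyme: SQLE averaged 45.1 ± 5.62 CPM in LM, 57.6 ± 13.9 in MM and 57.7 ± 5.53 in HM pools, and LSS 7.03 ± 2.21, 9.80 ± 1.97 and 10.2 ± 2.56 CPM (n = 3 each). The 8 varied together within a state (median pairwise correlation 0.60), so they are not 8 separate observations in either state. The share of all genes with their lowest mean in LM was not computed. In lactation LM pools again had the lowest mean of every enzyme except MVK. SQLE averaged 133 ± 2.52 CPM in LM, 159 ± 18.2 in MM and 186 ± 7.99 in HM pools, and HMGCS1 80.5 ± 12.9, 107 ± 26.1 and 136 ± 21.4 CPM (n = 2 each). In lactation both HM libraries carry lane 7 in the column name and both LM libraries lane 8. Lane and dam group therefore cannot be told apart between HM and LM of lactation.

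With all 15 libraries in 1 fit and state as a covariate, the unadjusted p for dam group was 0.00343 for SQLE, 0.0155 for LSS, 0.0294 for HMGCS1 and 0.0356 for IDI1. An unadjusted p under 0.05 was thus found for 4 of the 8 and for 5.15% of all genes, no gene was called, and the smallest adjusted p of the 8 was 0.707 (edgeR). When the lane was added, the smallest unadjusted p of the 8 was 0.158. The log2 change between states was 2.59 in LM and HM and 2.60 in MM for IDI1, whereas for HMGCS1 it was 1.18 in LM (SE 0.17), 1.27 in MM (SE 0.17) and 1.82 in HM (SE 0.17). The lane, which differs between the HM and LM libraries of lactation, was not part of these estimates. No gene was called for the interaction of state and dam group (0% of 13345 by edgeR; 876 had an unadjusted p under 0.05, and DESeq2 called 21, none of the 8). HMGCS1 had the smallest unadjusted p for it among the 8, at 0.0389 (adjusted p = 0.740, edgeR).

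A sequencing lane, 7 or 8, is part of each column name, although by the labels reads of 2 lanes were merged for each library. All 5 LM libraries carry lane 8, while HM carries lane 7 in 4 of 5 and MM in 3 of 5. With state as a covariate all 8 enzymes were lower in the libraries of lane 8, by 0.13 on the log2 scale for MVK to 0.48 for DHCR7, while 50.5% of all genes were lower there. HMGCS1 differed by −0.42 (SE 0.09, unadjusted p = 0.00028) and SQLE by −0.33 (SE 0.09, unadjusted p = 0.00118). The unadjusted p was under 0.05 for 7 of the 8, against 5.40% of all genes, but no gene was called after adjustment (0% of 13345 by edgeR, smallest adjusted p of the 8 = 0.413). The 8 enzymes varied together within a state and are therefore not 8 separate observations of a lane difference.

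In lactation the 3 lane 7 libraries all lay above the 3 lane 8 libraries for 4 of the 8 enzymes, a pattern shown by 6.28% of all genes tested. These were HMGCS1 (121 to 151 against 71.4 to 89.7 CPM), SQLE (172 to 191 CPM in lane 7, all above lane 8), IDI1 (208 to 258 against 175 to 198) and LSS (34.8 to 46.2 against 26.8 to 32.1). In late pregnancy the lanes overlapped for all 8. Within lane 7 alone the log2 changes between the states ran from 0.71 for MVK to 3.5 for DHCR7 and within lane 8 alone from 0.67 to 3.38. All 8 were called in both (edgeR). Of all genes tested, 6914 of 13287 were called in lane 7 alone and 7764 of 13720 in lane 8 alone, in either direction. For LM the lane and the dam group cannot be told apart, and in lactation this holds for HM as well, since both of its libraries carry lane 7.

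Within a state the 8 enzymes varied together from library to library. After removing each state's mean, the 28 pairwise correlations of log2(CPM + 1) over the 15 libraries were all above 0, from 0.34 for IDI1 with DHCR7 to 0.90 for IDI1 with SQLE, with a median of 0.60. Over all pairs of the 7074 genes that averaged 10 CPM or more the median was 0.01, with quartiles of −0.22 and 0.23. These values are descriptions: the points share library scaling, lane and dam group, and DHCR7 rests on few reads. Taking means by state and lane together, the median of the 28 was 0.42 and the lowest 0.12, and without the lactation library HM pool 1 the median by state was 0.62. On average over the 8, MM pool 1 deviated most upward in late pregnancy (0.35 on the log2 scale, 8 of 8 enzymes above the state mean) and also lay highest in lactation (0.20, 8 of 8). LM pool 2 of lactation lay lowest (−0.32, none of 8 above), followed by LM pools 1 and 2 of late pregnancy (−0.29 and −0.26).

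The genes most like the 8 enzymes in this within-state pattern were sought among the 7074, by the correlation with the mean standardised deviation of the 8. Of the top 5 that are not among the 8, 3 belong to the same route: FDPS (0.91), MSMO1 (0.91) and NSDHL (0.90). The other 2 were INTS4 (0.88), a subunit of the Integrator complex, and RDH11 (0.84), a retinol dehydrogenase. INSIG1 came next at 0.84, then EBP at 0.83, while the median over the 7074 genes was 0.02. Of the other route genes among the 7074 that are named here, SC5DL stood at 0.77 and HSD17B7 at 0.46. The pattern was not confined to the route: of genes for fatty acid synthesis and acetyl-CoA supply, FADS1 stood at 0.78 and SCD at 0.68. ACACA stood at 0.56, FASN at 0.54 and ACSS2 at 0.17. Each enzyme against the mean of the other 7 gave 0.90 for SQLE, 0.85 for LSS, 0.77 for IDI1, 0.74 for HMGCS1, 0.72 for MVD, 0.70 for MVK, 0.69 for FDFT1 and 0.52 for DHCR7. With means by state and lane, NSDHL (0.90), FDPS (0.88), EBP (0.87) and MSMO1 (0.87) stood within the top 5 places, and INTS4 and RDH11 stood at 0.75 and 0.68. SREBF2 reached 0.73 by state alone, SREBF1 0.40 and SCAP −0.08.

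**Figure D5:**
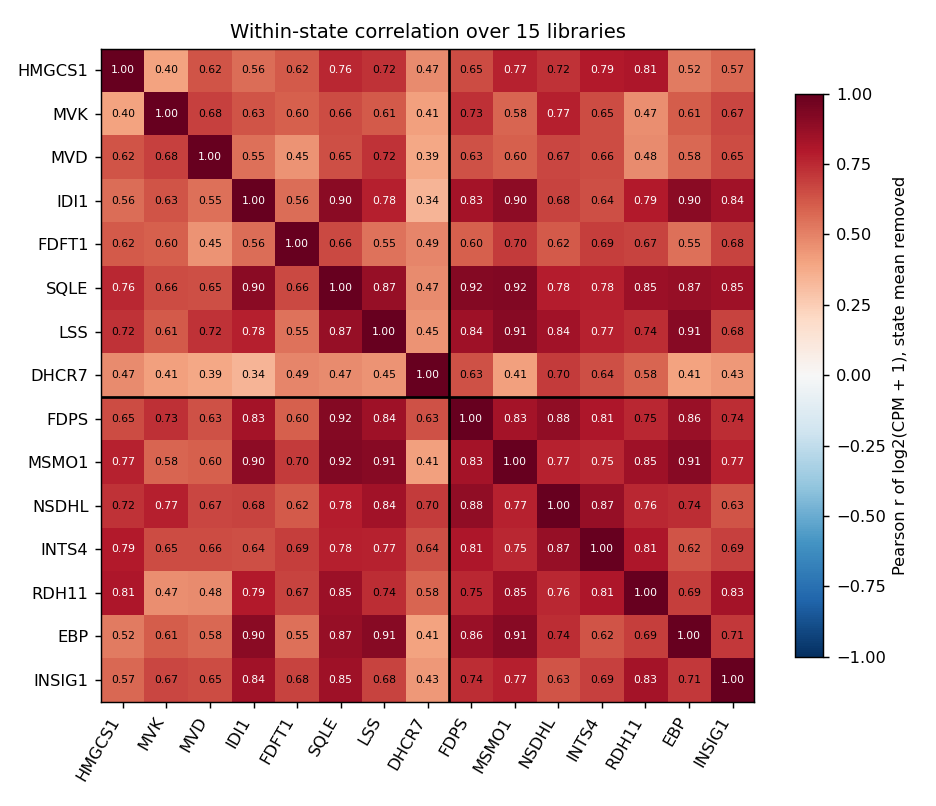
Pearson correlation over the 15 libraries of log2(CPM + 1) with the state mean removed, for the 8 enzymes (above and left of the lines), the 5 other genes most like them and EBP and INSIG1. SQLE correlates at 0.90 with IDI1 and 0.87 with LSS, and DHCR7 has the palest row among the 8, from 0.34 to 0.49.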

How the data were processed

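Reads of 15 pooled mammary libraries were mapped by the authors to the sheep genome in CLC Genomics Workbench (Oar 3.1 per the labels, version 3.2 in the methods). A pool held RNA of 3 ewes in late pregnancy and 2 in lactation by the labels, or 3 in both by the methods. Ewes were biopsied repeatedly, and which pools share ewes is not given in the sources used here, so p-values measure the spread between pools. The deposited counts are unnormalized reads on exons and on whole genes. The RPKM values were deposited by the authors as exon reads per kilobase and per 1000000 reads on genes, and recomputing them matched to within 3.5e-07. A further deposited column per library, RPKM quantile-normalized by the authors, served only in an alternative. Columns with the authors' own group means, differences, fold changes and Baggerly test results were not used.

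For 5583 of 24691 features without a transcript, gene reads replaced exon reads. Counts were tested with edgeR 4.0.16 (R 4.3.3), using filterByExpr, TMM factors and the quasi-likelihood F-test, with Benjamini-Hochberg adjustment over all genes tested and a threshold of 0.05. CPM divides by the library size times its TMM factor, so the values of a library can sum to more than 1000000. SE were approximated as the log2 change divided by the square root of F. Intron reads are gene reads minus exon reads. Dam groups were tested in the 9 late pregnancy libraries, and with state in an interaction. Pools were not paired, because the study used no pairing and pooled randomly selected ewes. Over all genes tested, same-numbered pools of the states did not deviate together (correlations −0.045 to 0.12). For the mean of the 8 enzymes, HM pool 1, LM pools 1 and 2 and MM pool 1 deviated to the same side in both states. HM pool 2 and MM pool 2 deviated to opposite sides. Alternatives used DESeq2 1.42.0, limma 3.58.1 (log2 of quantile-normalized RPKM plus 1 or 0.1), other scalings, filters, covariates, single lanes and leaving out each library. The scaling to reads outside milk protein genes, the dam fits over 15 libraries, the lane test, means by state and lane, and correlations and ratios without the lactation library HM pool 1 were chosen after seeing the data. The fits were tested on simulated counts first.

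The 8 enzymes and all gene lists were chosen with earlier results of these data known. Named genes were the 8, all other genes of the route, SREBF1, SREBF2, SCAP, INSIG1 and INSIG2, up to 2 called genes with the largest rise and up to 2 with the largest fall of each further list, and the 5 genes most like the 8. SCD, ACACA, FASN and ACSS2 were named in addition for their likeness to the 8. Some listed genes are not reported here, and list counts and medians leave them out. Plots used matplotlib 3.10.9.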

Additional observations from a re-analysis of the deposited data

Results flagged for a closer look

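In 16 groups of libraries (8 enzymes in each of the 2 states), 1 value lay far from its neighbours by Dixon's test at the 95% level: FDFT1 in the lactation library LM pool 2, at 80.9 CPM, where the other 5 lactation libraries lay between 102 and 106 CPM. Chance gives about 1 such value in 20 groups. The same library had the lowest lactation value of HMGCS1, IDI1, SQLE, LSS and DHCR7 as well.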

How the results depend on the processing

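On exon reads, scaling to all reads instead of TMM was the only alternative that changed a call of an enzyme's log2 change between states. It left 2 of the 8 enzymes called higher and 4 called lower (0 with TMM), and 3 of the 9 other genes of the route called higher, against 7. HMGCS1 then stood at −0.44, MVK at −1.20, FDFT1 at −0.51 and SQLE at −0.32, by construction below the TMM values, since milk protein genes filled more of the lactation libraries. In the other 343 fitted values for single enzymes, on exon and intron reads, the direction and the call were kept. These hold no intron value of HMGCS1, which was called on intron reads only when the lactation library LM pool 2 was left out (8 called, against 7). A minimum of 10 reads in every library removed DHCR7 and left 7 of 7. Leaving out each library in turn gave 0.65 to 0.74 for MVK, 1.33 to 1.54 for HMGCS1 and 3.38 to 3.59 for DHCR7 on the log2 scale. Whether same-numbered pools share ewes is not given in the sources used here. With the replicate block in the 12 libraries that share numbers, 8 of 8 enzymes were called, with 8324 genes called in all, against 8496 in the same libraries without the block; the block was run for the change between states on exon reads and for no other comparison. The few exon reads of DHCR7 and the few intron reads of HMGCS1 and IDI1 limited these genes, and 2 to 3 pools per dam group limited the test of feeding.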
